A study of Arabidopsis thaliana with 9 samples.

Results

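The 10 genes described here are ethylene response factors (ERFs) linked to stress and wounding: ERF1 (AT3G23240), ORA59 (AT1G06160), ERF1A (AT4G17500), ERF2 (AT5G47220), ERF5 (AT5G47230), ERF6 (AT4G17490), ERF13 (AT2G44840), ERF104 (AT5G61600), ERF105 (AT5G51190) and ERF109 (AT4G34410). They were taken by locus from 28775 loci counted in each library, and all 10 had enough counts to be among the 19496 genes tested. The libraries hold root mRNA of Arabidopsis thaliana plants aged 2 weeks and grown in long days, with 3 libraries per genotype. Col-0 is the wild type, 35S:miR858 overexpresses the microRNA miR858, and 35S:rMYB83 overexpresses a form of the secondary wall regulator MYB83 that resists miR858. The 35S promoter, from cauliflower mosaic virus, drives its transgene in most cell types, so neither line limits the change to one root tissue. How many transgenic lines and how many plants made up a library is not stated, and no label names a treatment or a nematode infection.

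ERF proteins are plant transcription factors that bind DNA through a single AP2/ERF domain. Ethylene and jasmonate raise the transcripts of ERF1 and ORA59, which switch on defence genes against necrotrophic fungi. Other ERFs of the same branch are phosphorylated by mitogen-activated protein kinases and are transcribed within minutes of wounding, touch, cold or a microbial elicitor, and ERF109 connects jasmonate with auxin synthesis in injured roots.

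The 10 genes lie on all 5 chromosomes, and each is a single exon with 1 transcript in the RefSeq annotation (build TAIR10.1). ERF6 (chr4:9752824-9754161, minus strand) and ERF1A (chr4:9759203-9760391, plus strand) are divergent neighbours with 5041 bases and no annotated gene between them. ERF2 (chr5:19171643-19172956, minus strand) and ERF5 (chr5:19179881-19181182, plus strand) form a second divergent pair 6924 bases apart, with 2 annotated genes between them. By coding sequence the closest members cross these pairs: ERF5 and ERF6 were 69% identical and ERF1A and ERF2 64.9% identical, over nucleotide alignments with gaps counted as differences. The longest stretch of any member found unchanged elsewhere in the genome was 32 bases, in ORA59, and ERF6 and ERF13 shared 31 bases.

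The upstream windows of ERF6, ERF13 and ERF109 are shown because these genes had the largest changes. Those of ERF1A and ERF2 are shown because they share a stretch of sequence. The estimated changes of these 2 genes in 35S:miR858 had opposite signs, but neither passed at an adjusted p under 0.05. Each is the 250 bases before the annotated transcript start in RefSeq TAIR10.1, on the gene's own strand, with capitals marking matches to the motifs named below.
ERF6 (chr4:9754162-9754411, minus): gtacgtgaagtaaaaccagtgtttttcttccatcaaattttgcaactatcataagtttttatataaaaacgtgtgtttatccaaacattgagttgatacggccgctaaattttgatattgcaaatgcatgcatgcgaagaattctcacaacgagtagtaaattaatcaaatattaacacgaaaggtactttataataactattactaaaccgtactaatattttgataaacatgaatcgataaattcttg
ERF13 (chr2:18494965-18495214, plus): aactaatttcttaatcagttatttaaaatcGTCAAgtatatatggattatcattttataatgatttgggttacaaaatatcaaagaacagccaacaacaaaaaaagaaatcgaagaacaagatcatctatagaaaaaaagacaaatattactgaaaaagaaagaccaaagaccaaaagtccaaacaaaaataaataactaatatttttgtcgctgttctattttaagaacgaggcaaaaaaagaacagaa
ERF109 (chr4:16451626-16451875, plus): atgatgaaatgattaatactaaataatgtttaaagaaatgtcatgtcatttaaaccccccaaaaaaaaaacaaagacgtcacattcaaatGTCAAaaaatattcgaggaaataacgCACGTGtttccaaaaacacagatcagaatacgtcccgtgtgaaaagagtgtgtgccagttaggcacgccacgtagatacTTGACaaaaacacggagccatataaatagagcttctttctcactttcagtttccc
ERF1A (chr4:9758953-9759202, plus): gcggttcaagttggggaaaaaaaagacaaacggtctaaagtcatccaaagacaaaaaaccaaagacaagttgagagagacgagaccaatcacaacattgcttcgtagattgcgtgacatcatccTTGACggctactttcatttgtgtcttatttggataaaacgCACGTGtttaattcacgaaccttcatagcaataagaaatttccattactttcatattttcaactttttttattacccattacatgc
ERF2 (chr5:19172957-19173206, minus): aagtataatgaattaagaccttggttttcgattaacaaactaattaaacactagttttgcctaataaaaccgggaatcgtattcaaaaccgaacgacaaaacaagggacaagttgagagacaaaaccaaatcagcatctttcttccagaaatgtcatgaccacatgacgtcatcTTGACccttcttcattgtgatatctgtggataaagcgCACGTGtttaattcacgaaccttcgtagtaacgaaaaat

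Motifs were searched on both strands from 250 bases before to 50 bases after each start. The W box core (TTGAC), the element of WRKY factors, was in 7 of the 10 members and in 50.5% of 27443 promoters of the same length. The G box (CACGTG), bound by factors such as MYC2, was in ORA59, ERF1A, ERF2 and ERF109, which is 4 of 10 against 7.68% of all promoters. The GCC box (GCCGCC), the classic ERF element, was in ORA59 alone among the members, against 2.57% of all promoters. The rapid stress element (CGCGTT) was in no member and in 3.4% of promoters, and the windows of ERF6 and ERF104 held none of these motifs. ERF1A and ERF2 shared an unbroken run of 26 bases around the G box, where capitals mark the G box.
ERF1A and ERF2 shared run: cgCACGTGtttaattcacgaaccttc
A match is a description of the letters, and binding was not measured.

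Pairing with miR858 was compared because 1 line overexpresses this microRNA. The mature miR858a (chr1:26773695-26773715, minus strand) is shown in DNA letters with the seed, bases 2 to 8, in capitals, beside the best ungapped match in the MYB83 transcript and in ERF6, where capitals mark bases paired by the Watson-Crick rule.
miR858a: tTTCGTTGtctgttcgacctt
MYB83 site: cAGGTaGAACAGACAACGAgA
ERF6 best match: AcGaTCaAACcGttgACGAgg
With a penalty of 1 per mismatch and 0.5 per G:U pair, the MYB83 site scored 2.5, and 0.0146% of 27440 transcripts scored as low or lower. The members scored 6.5 to 8. The lowest of these, in ERF1A and ERF2, was reached or bettered by 40.6% of transcripts, and the match in ERF6 scored 7, which 65.4% reached or bettered.

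The libraries held 5313656 to 10648857 gene counts, and levels are given as CPM, gene counts relative to the library total, scaled by the trimmed mean of M values (TMM). The labels were checked by the transgenes: MYB83 stood at 97.87 to 134.2 CPM in 35S:rMYB83 and at 0.722 to 2.17 CPM in the other 6 libraries, and the MIR858a locus had 120, 200 and 227 counts in 35S:miR858 and 0 elsewhere. All 9 root markers were detected in every library. Of the 17 green shoot markers 16 were detected in Col-0 replicate 3, where RBCS1B had 0 counts, and 17 in each of the other libraries. They took from 0.0634% of counts in Col-0 replicate 3 to 0.741% in 35S:rMYB83 replicate 1, with 0.429% in Col-0 replicate 1. Since no label states whether the replicates were separate batches of plants, p-values cover the spread between these libraries, which may be technical. In whole roots, fewer cells of a type and less RNA per cell cannot be told apart.

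In 35S:miR858 roots 5 of the 10 ERF genes rose against Col-0 and none fell at an adjusted p under 0.05. ERF13 and ERF109 were more than 10-fold higher, ERF6 was 6.07-fold, ERF105 3.58-fold and ERF104 2.61-fold higher. ERF1 and ERF2 lay below Col-0 without passing the test. Of all genes tested, 11.6% rose and 13.5% fell in this comparison. The median log2 fold change of the members was 1.05, beside -0.02 over all genes tested. The members were chosen with earlier results of these data known. Setting them beside all genes is therefore a description, here and in the other comparisons. At an unadjusted p under 0.05, 2 members were lower, and DESeq2 called 1 of them, ERF2. The share of all genes at the unadjusted threshold is not given here, so that count has no background to be read against.

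ERF6, an activator regulated by the kinases MPK3 and MPK6, stood at 21.6, 8.05 and 15.1 CPM in Col-0, at 85.1, 122.3 and 64.6 CPM in 35S:miR858, and at 50.7, 42.4 and 44.8 CPM in 35S:rMYB83. The 3 genotypes did not overlap, with Col-0 lowest and 35S:miR858 highest. Its log2 fold change in 35S:miR858 was 2.6 (SE 0.33, adjusted p = 0.000496) and its 95% interval ran from 1.87 to 3.33.

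ERF13, a wound-induced gene of the same branch, was the lowest member in Col-0. Its levels were 1.29, 0.543 and 0.361 CPM in Col-0, 8.15, 13.8 and 3.23 CPM in 35S:miR858, and 3.40, 3.18 and 2.27 CPM in 35S:rMYB83. Every library of both lines lay above every Col-0 library, while the lines overlapped each other. These levels rest on 15, 6 and 3 counts in Col-0 and on 68, 108 and 30 counts in 35S:miR858. The log2 fold change in 35S:miR858 was 3.43 (SE 0.58, adjusted p = 0.00229; 95% interval 2.14 to 4.72).

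ERF109, a redox-responsive factor that joins jasmonate to auxin synthesis, was at 7.58, 1.45 and 4.21 CPM in Col-0. It reached 51.9 and 81.1 CPM in 35S:miR858 replicates 1 and 2 but 6.66 CPM in replicate 3, and stood at 17.2, 15.6 and 12.1 CPM in 35S:rMYB83. Replicate 3 of 35S:miR858 thus lay below Col-0 replicate 1, and these 2 groups overlapped, whereas 35S:rMYB83 lay wholly above Col-0. The rise in 35S:miR858 passed the test, with 3.38 as its log2 fold change (SE 0.79, adjusted p = 0.0116; 95% interval 1.62 to 5.14).

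ERF104, a substrate of MPK6 that takes part in the response to bacterial flagellin, was the most abundant member. It stood at 146.2, 58.0 and 78.5 CPM in Col-0, at 265.7, 254.0 and 219.2 CPM in 35S:miR858, and at 155.4, 147.5 and 124.9 CPM in 35S:rMYB83. The 35S:miR858 libraries lay above all others, and 35S:rMYB83 overlapped Col-0 through Col-0 replicate 1. Its log2 fold change in 35S:miR858 was 1.38 (SE 0.28, adjusted p = 0.0057; 95% interval 0.76 to 2.01).

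ERF105, a relative of ERF104 that responds to cold, was at 55.1, 15.8 and 20.6 CPM in Col-0, at 130.7, 128.5 and 70.5 CPM in 35S:miR858, and at 75.3, 68.3 and 47.4 CPM in 35S:rMYB83. All 35S:miR858 libraries were above Col-0, with replicate 3 nearest to it. The log2 fold change was 1.84 (SE 0.43, adjusted p = 0.0121; 95% interval 0.87 to 2.81). The whole 965-base ERF105 transcript is overlapped by exons of AT5G51180 on the other strand, and 226 exonic bases of ERF109 by AT4G34412. The long non-coding RNA AT4G08985, which has no count here, overlaps ERF109 on the other strand by 661 exonic bases. These overlaps are from RefSeq TAIR10.1, whereas counting used TAIR10. No source used here states whether counting used the strand or how reads on overlapping genes were assigned. Whether such overlaps added to or took from the counts of ERF105 and ERF109 is therefore not known. Across the 9 libraries AT5G51180 had 106 to 238 counts and AT4G34412 had 46 to 116.

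The 5 rises kept their call in each of the 19 alternative fits, including those without each library in turn. Col-0 replicate 1 was the highest Col-0 library for 7 of the 10 members, Col-0 replicate 2 the lowest for 9, and 35S:miR858 replicate 3 the lowest of its group for 8. Without Col-0 replicate 1, ERF1A was also called, so 6 members rose. ERF6, ERF13, ERF104 and ERF105, 4 of the 10, had no library of 35S:miR858 within or below the Col-0 range, as did 18.8% of all genes tested.

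**Figure D1:**
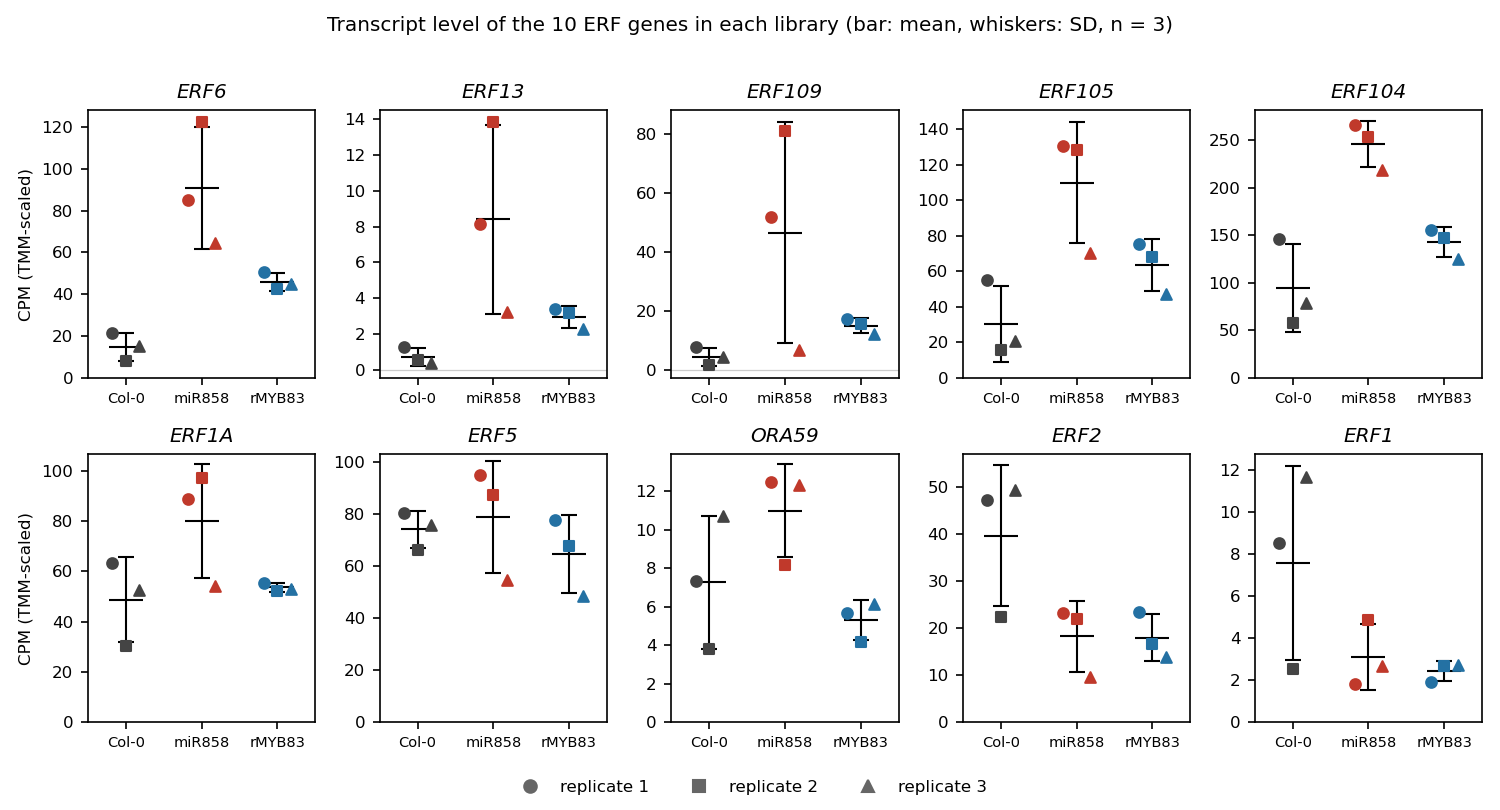
Level of each of the 10 ERF genes in CPM (vertical axes, TMM-scaled, 1 scale per panel) by genotype, with 1 point per library, the mean as a bar and the SD as whiskers (n = 3). In the upper row the 35S:miR858 means are highest for all 5 genes, with ERF109 of replicate 3 down at 6.66 CPM; in the lower row ERF2 and ERF1 have their highest mean in Col-0.

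The other 5 members did not pass in 35S:miR858. ERF1A, an activator through the GCC box, was at 63.3, 30.3 and 52.7 CPM in Col-0 and at 88.9, 97.5 and 54.2 CPM in 35S:miR858. Replicate 3 of 35S:miR858 lay among the Col-0 values, and the log2 fold change was 0.72 (SE 0.27, adjusted p = 0.0765). It passed without Col-0 replicate 1 at 0.96 (adjusted p = 0.0301) and without 35S:miR858 replicate 3 at 0.91 (adjusted p = 0.0327).

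ERF5, the closest relative of ERF6 by coding sequence, changed least among the members in 35S:miR858 against Col-0, with a log2 fold change of 0.09. Its levels were 80.1, 66.2 and 75.8 CPM in Col-0, 94.9, 87.1 and 54.5 CPM in 35S:miR858, and 77.7, 67.6 and 48.4 CPM in 35S:rMYB83. All 3 groups overlapped. The 95% interval of its log2 fold change was -0.39 to 0.57 in 35S:miR858 and -0.69 to 0.28 in 35S:rMYB83. Neither interval reached the ERF6 estimate of the same comparison, 2.6 in 35S:miR858 and 1.62 in 35S:rMYB83.

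ERF2, an activator of jasmonate-responsive defence genes, was at 47.3, 22.3 and 49.4 CPM in Col-0, at 23.1, 22.0 and 9.46 CPM in 35S:miR858, and at 23.4, 16.5 and 13.8 CPM in 35S:rMYB83. Col-0 replicates 1 and 3 lay above both lines, and Col-0 replicate 2 lay among them. The log2 fold change was -1.13 (SE 0.37, adjusted p = 0.0518) in 35S:miR858 and -1.16 (SE 0.38, adjusted p = 0.0651) in 35S:rMYB83. Without Col-0 replicate 2 both passed, at -1.41 (adjusted p = 0.0193) and -1.45 (adjusted p = 0.0266). Under library totals alone they also passed, at -1.28 (adjusted p = 0.0284) and -1.27 (adjusted p = 0.0421), a scaling that shifts the median of all genes to -0.16 and -0.10.

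ERF1, an integrator of ethylene and jasmonate signals, stood at 8.52, 2.53 and 11.7 CPM in Col-0, at 1.80, 4.86 and 2.69 CPM in 35S:miR858, and at 1.89, 2.69 and 2.72 CPM in 35S:rMYB83. As with ERF2, the second Col-0 library fell within the range of the transgenic ones. Its log2 fold change was -1.28 (SE 0.52, adjusted p = 0.1) in 35S:miR858 and -1.60 (SE 0.54, adjusted p = 0.0722) in 35S:rMYB83. Both passed without Col-0 replicate 2, at -1.70 (adjusted p = 0.0126) and -2.02 (adjusted p = 0.0103).

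ORA59, which acts beside ERF1 on the plant defensin genes, was at 7.32, 3.80 and 10.7 CPM in Col-0, at 12.5, 8.19 and 12.4 CPM in 35S:miR858, and at 5.67, 4.15 and 6.12 CPM in 35S:rMYB83. The lines did not overlap each other, and Col-0 overlapped both. The Col-0 range held all 35S:rMYB83 libraries, whereas 35S:miR858 replicates 1 and 3 lay above every Col-0 library. Its log2 fold change was 0.61 (SE 0.33, adjusted p = 0.21) in 35S:miR858 and -0.44 (SE 0.35, adjusted p = 0.446) in 35S:rMYB83.

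In 35S:rMYB83 roots only ERF6 rose against Col-0 among the 10 members, and none fell; 6.70% of all genes tested rose and 9.73% fell. The log2 fold change of ERF6 was 1.62 (SE 0.33, adjusted p = 0.00856; 95% interval 0.89 to 2.35), a 3.07-fold rise that kept its call in all 19 alternative fits. The median log2 fold change of the members was 0.37, beside 0.01 over all genes tested. ERF6, ERF13 and ERF109, 3 of the 10 members, had every 35S:rMYB83 library above every Col-0 library, which holds for 16.0% of all genes tested. On the same scale ERF13 stood at 1.92 (SE 0.62, adjusted p = 0.0647), ERF109 at 1.74 (SE 0.80, adjusted p = 0.176), ERF105 at 1.05 (SE 0.43, adjusted p = 0.131) and ERF104 at 0.60 (SE 0.28, adjusted p = 0.178). At an unadjusted p under 0.05, a count again without the share of all genes beside it, 2 members were lower, and DESeq2 called both, ERF1 and ERF2.

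The count in 35S:rMYB83 depended on single libraries and on whether the replicate number was used as a block. With the replicate number as a block 3 members rose: ERF6, ERF13 at 2.04 (adjusted p = 0.0206) and ERF105 at 1.17 (adjusted p = 0.0298). Without Col-0 replicate 1, the highest Col-0 library for most members, 4 members rose: ERF6, ERF13 at 2.62 (adjusted p = 0.0386), ERF104 at 1.06 (adjusted p = 0.00209) and ERF105 at 1.81 (adjusted p = 0.00425). Leaving out a library of the other line also moved the count: 3 members rose without 35S:miR858 replicate 3 and 2 without 35S:miR858 replicate 2. All 9 libraries share 1 estimate of the spread, so a library outside a comparison can change its adjusted p. The parts of spread, scaling and filter in these shifts were not tested. Col-0 replicate 1 and 35S:rMYB83 replicate 1 are also the 2 libraries with the largest green shoot share, and without both 3 members rose; the part of green tissue in the result was not tested.

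Set directly against 35S:miR858, 0 members rose and 0 fell in 35S:rMYB83 by edgeR's quasi-likelihood test. All 10 had a negative log2 fold change, but ERF2, at -0.03, changed sign in 5 of 19 alternative fits, reaching 0.18 without 35S:miR858 replicate 1 and 0.01 under library totals alone, and ERF1, at -0.32, changed sign in 1, at 0.13 without 35S:miR858 replicate 2. The median was -0.79, beside 0.00 over all genes tested. Of all genes tested, 2.50% rose and 1.54% fell. At an unadjusted p under 0.05, 5 members were lower and 0 higher, and DESeq2 called 2 lower, ERF6 and ERF104. The 2.50% and 1.54% are shares at an adjusted p, so the unadjusted count cannot be read against them. The values that came nearest were ERF6 at -0.98 (SE 0.31, adjusted p = 0.12), ORA59 at -1.05 (SE 0.35, adjusted p = 0.138) and ERF13 at -1.51 (SE 0.51, adjusted p = 0.147). ORA59, ERF6 and ERF104 had every 35S:rMYB83 library below every 35S:miR858 library, 3 of 10 members against 12.5% of all genes tested. Without 35S:miR858 replicate 3, 2 members fell, ERF13 at -1.90 (adjusted p = 0.0422) and ERF109 at -2.15 (adjusted p = 0.037). Similarly, 1 member fell without Col-0 replicate 1, ERF104 at -0.79 (adjusted p = 0.0117), and 1 without Col-0 replicate 2, ERF6 at -0.98 (adjusted p = 0.0473). With all 9 libraries ERF104 was also at -0.79 (adjusted p = 0.16).

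**Figure D2:**
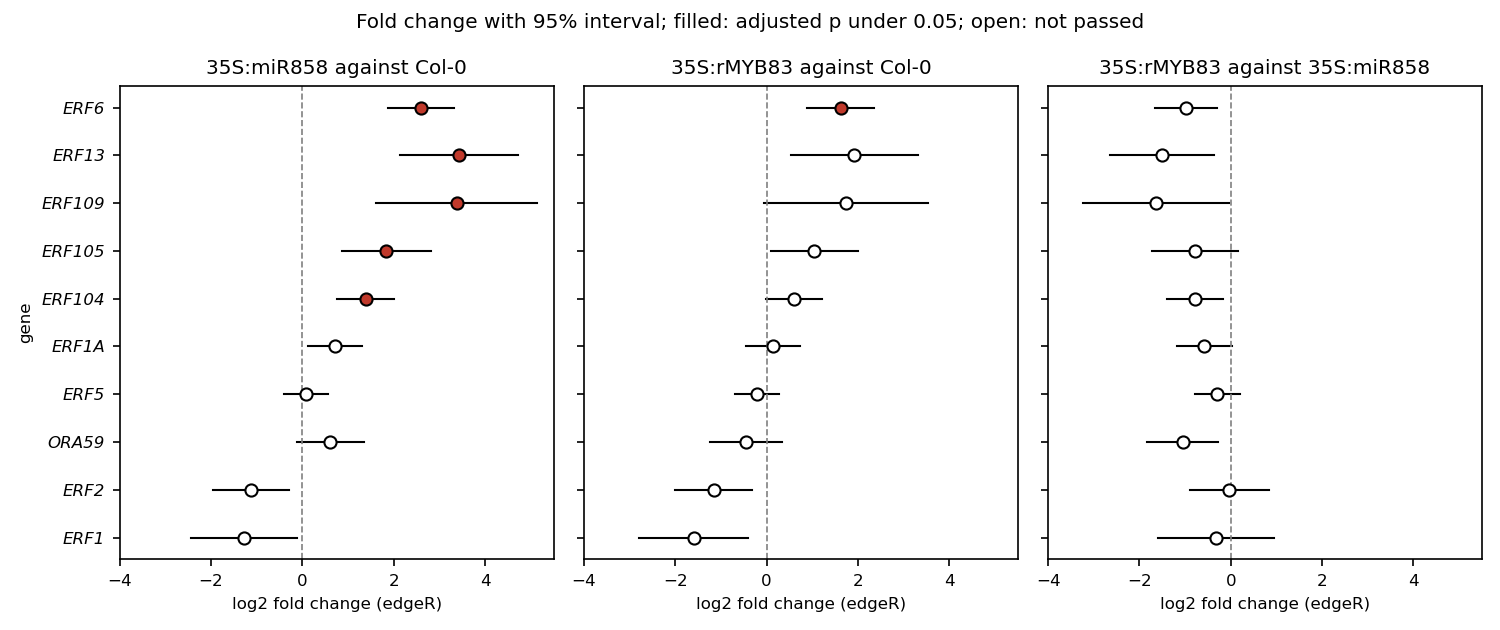
Log2 fold change of each ERF gene (horizontal axis) with its 95% interval in the 3 comparisons, filled where the adjusted p was under 0.05. Filled points are 5 in 35S:miR858, ERF6 alone in 35S:rMYB83 and 0 in the direct comparison, where all 10 points lie left of the dashed line at 0 (ERF2 changes sign in 5 of 19 alternative fits, to 0.01 under library totals alone, and ERF1 in 1).

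Levels per kilobase of exon put ERF104 first in every genotype, at 67.8 ± 33.2, 177.3 ± 17.4 and 102.7 ± 11.4 CPM per kb (SD, n = 3) in Col-0, 35S:miR858 and 35S:rMYB83. In Col-0 it was followed by ERF5 at 56.9 ± 5.48, ERF1A at 41.0 ± 14.2, ERF105 at 31.6 ± 22.2 and ERF2 at 30.2 ± 11.4 CPM per kb, each overlapping its neighbour. ERF6 came next at 11.1 ± 5.07 CPM per kb, with all of its libraries below those of ERF2, and ERF13 was last at 0.657 CPM per kb. In 35S:miR858 ERF6 had moved up to 67.8 CPM per kb, beside ERF1A at 67.4 and ERF5 at 60.5, whereas ERF2 stood at 13.9 and ERF1 was last at 3.15 CPM per kb. In 35S:rMYB83 ERF6 was at 34.3 CPM per kb, between ERF1A at 45.1 and ERF2 at 13.6, with no overlap on either side.

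Ratios of counts within a library cancel its depth and scaling, and were taken for 5 pairs of neighbours or close relatives, chosen after the levels were seen. The ratio of ERF6 to its neighbour ERF1A was 0.342, 0.266 and 0.285 in Col-0, 0.958, 1.26 and 1.19 in 35S:miR858, and 0.915, 0.811 and 0.842 in 35S:rMYB83. The 3 genotypes did not overlap, although ERF6 itself varied within each. The ratio of ERF2 to its neighbour ERF5 was 0.590, 0.337 and 0.651 in Col-0, 0.244, 0.253 and 0.174 in 35S:miR858, and 0.302, 0.244 and 0.286 in 35S:rMYB83, so both lines lay below Col-0.

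ERF1A and ERF2, which share the 26-base upstream run, had a ratio of 1.34, 1.36 and 1.07 in Col-0, 3.84, 4.43 and 5.73 in 35S:miR858, and 2.36, 3.17 and 3.84 in 35S:rMYB83. Here too every library of either line was beyond every Col-0 library. ERF6 to ERF5 behaved alike, with log2 differences from Col-0 of 2.61 and 1.95. ERF105 to ERF104 overlapped between 35S:miR858 and Col-0, with a log2 difference of 0.52 (two-sided exact permutation p = 0.2). With 3 libraries per group the smallest p an exact permutation test allows is 0.1, which the other 4 pairs reached in both lines and ERF105 to ERF104 in 35S:rMYB83; over the 15 tests the adjusted value was 0.15, so none passed.

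**Figure D3:**
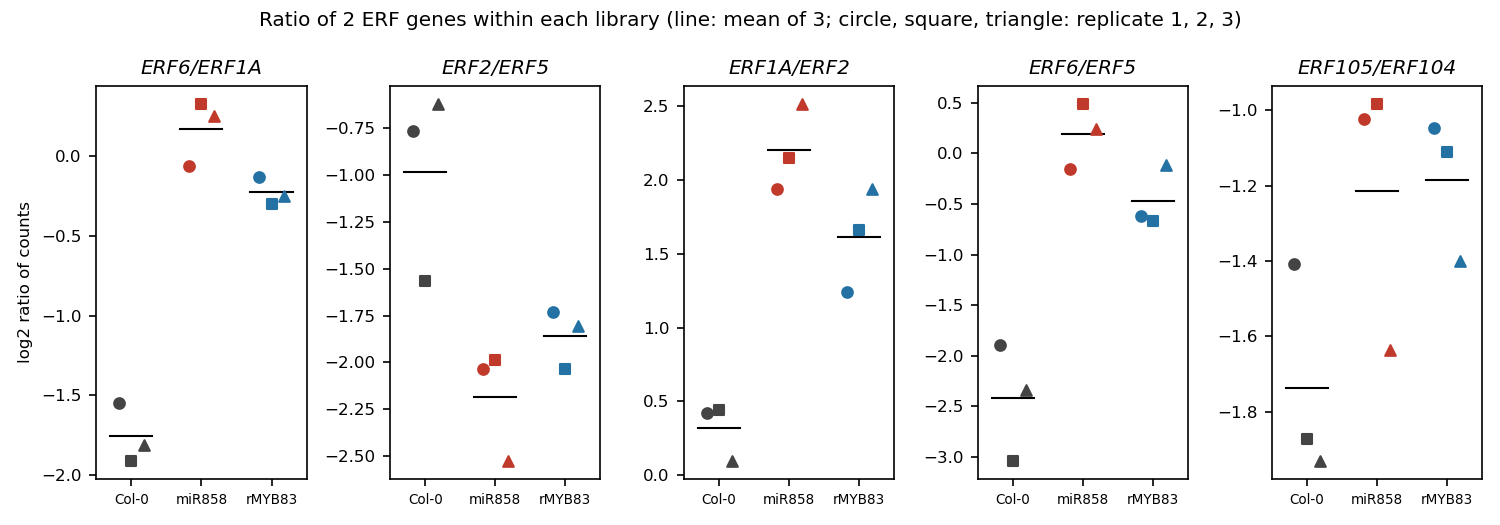
Log2 ratio of the counts of 2 ERF genes within each library (vertical axes, 1 scale per panel) by genotype, with the mean of 3 libraries as a line. In the first 4 panels no library of either line overlaps Col-0; for ERF105/ERF104 the 35S:miR858 replicate 3 point lies within the Col-0 range.

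The other genes of the pathway were read from lists of named loci. Among 8 other genes of ERF group IX, 3 were tested: in 35S:miR858, with changes again given as log2, ERF106 rose by 0.88 (adjusted p = 0.000441) and ERF107 by 1.01 (adjusted p = 0.031), while ERF15 fell by 0.84 (adjusted p = 0.00522). ERF15 fell in 35S:rMYB83 as well, by 1.19 (adjusted p = 0.00173), and ERF106 was lower in 35S:rMYB83 than in 35S:miR858 at -0.87 (adjusted p = 0.0032). ERF106 was at 42.1, 33.8 and 35.6 CPM in Col-0, at 69.3, 68.8 and 67.1 CPM in 35S:miR858, and at 35.2, 41.9 and 34.9 CPM in 35S:rMYB83. It was thus high in the 35S:miR858 libraries alone, replicate 3 included. ERF107, which lies 832 bases from ERF104, lost its call in 9 of 19 alternative fits, among them those without Col-0 replicate 1, Col-0 replicate 2 or 35S:miR858 replicate 3.

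Of 7 other group X genes 4 were tested, and ERF112 fell in 35S:miR858 by 1.60 (adjusted p = 0.00256) and in 35S:rMYB83 by 1.03 (adjusted p = 0.0282). The second call was lost without Col-0 replicate 2 or 3 and without 35S:rMYB83 replicate 2 or 3. Among 8 repressors of group VIII, of which 7 were tested, ERF4 rose in 35S:miR858 at 0.79 (adjusted p = 0.0148) and ERF9 in 35S:rMYB83 at 1.19 (adjusted p = 0.00813). The ERF4 call was lost without Col-0 replicate 2 or 35S:miR858 replicate 2.

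Signalling genes upstream of the ERFs were set beside the 11.6% of all genes tested that rose in 35S:miR858 and the 6.70% in 35S:rMYB83. Lists of 8 and 5 genes are too short to show a lack or an excess. Of 8 ethylene signalling genes 1 rose in 35S:miR858, the kinase CTR1 at 0.42 (adjusted p = 0.0438), a call lost in 12 of 19 alternative fits, and 0 passed in 35S:rMYB83. Among 5 kinase and jasmonate genes MYC2, the jasmonate regulator that binds the G box, rose in 35S:miR858 at 0.90 (adjusted p = 0.0151), a call lost without Col-0 replicate 2 or 35S:miR858 replicate 2.

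Downstream, 2 of 6 defence genes known as ERF1 and ORA59 targets could be tested. PR4, a chitin-binding defence protein, was at 136.1, 70.7 and 140.5 CPM in Col-0, at 434.2, 325.8 and 408.1 CPM in 35S:miR858, and at 283.6, 212 and 296.9 CPM in 35S:rMYB83. All 3 genotypes were separate, and PR4 rose at 1.75 (adjusted p = 0.000907) and 1.19 (adjusted p = 0.00961). In the same order ERF1 was at -1.28 and -1.60 and ORA59 at 0.61 and -0.44, and none of these passed. The part of ERF1 or ORA59 in the PR4 level was not tested. CHIB, the other gene tested, did not pass in either line. It stood at 0.43 (adjusted p = 0.331) in 35S:miR858 and at 0.45 (adjusted p = 0.349) in 35S:rMYB83, and both lines overlapped Col-0. The 4 plant defensin genes of the list, PDF1.2a, PDF1.2b, PDF1.2c and PDF1.3, had 0 to 10 counts in any library and could not be tested. Of the 2 auxin synthesis genes that ERF109 is known to bind, neither passed in 35S:miR858, where ERF109 rose. In 35S:rMYB83 ASA1, a subunit of anthranilate synthase, fell by 0.78 (adjusted p = 0.00133), and YUC2 rose at 1.63 (adjusted p = 0.0372), a call lost in 8 of 19 alternative fits.

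Early touch and wound genes, which the same stimuli induce, were read as a list of 11. The list was chosen with earlier results of these data known, so its counts are a description. In 35S:miR858 8 rose, beside 11.6% of all genes tested. The median log2 fold change was 1.84, beside -0.02 over all genes tested. The calmodulin-like genes TCH3 and CML38 rose at 2.1 (adjusted p = 0.0012) and 1.85 (adjusted p = 0.00209). The zinc finger gene ZAT10 rose at 1.88 (adjusted p = 0.00624). In 35S:rMYB83 the median was 0.90, beside 0.01 over all genes tested. There 1 rose, beside 6.70% of all genes tested, namely TCH3 at 1.06 (adjusted p = 0.0435). That call was lost in 9 of 19 alternative fits, the replicate block and library totals among them, although 3 early genes rose with the block. These counts depended on single libraries: in 35S:miR858 5 rose without Col-0 replicate 3 or 35S:miR858 replicate 2 and 10 without Col-0 replicate 1. In 35S:rMYB83 7 rose without Col-0 replicate 1 and 3 without 35S:miR858 replicate 3. There, 0 rose without any 1 of the 35S:rMYB83 libraries, without 35S:miR858 replicate 1, without either replicate 2 or replicate 3 of Col-0, and under library totals alone.

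The summed level of the 11 genes was 845.5, 423.5 and 570.4 CPM in Col-0, 1766, 2105 and 897.6 CPM in 35S:miR858, and 979.9, 940.3 and 852.7 CPM in 35S:rMYB83. The 10 ERF genes summed to 438.3, 209 and 319 CPM, to 762.7, 819.3 and 497.4 CPM, and to 466, 420.2 and 355.7 CPM in the same order. In both sums Col-0 replicate 1 was the highest Col-0 library, Col-0 replicate 2 the lowest, and 35S:miR858 replicate 3 the lowest of its group. By gene, Col-0 replicate 1 was highest for 10 of the 11 early genes, Col-0 replicate 2 lowest for all 11, and 35S:miR858 replicate 3 lowest of its group for 10. The sources used here do not give handling or harvest time, and the part of either in the ERF values was not tested.

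With Col-0 replicate 1 and 35S:miR858 replicate 3 both left out, 6 members rose in 35S:miR858 and 5 in 35S:rMYB83, and 5 fell in the direct comparison, namely ERF6, ERF13, ERF104, ERF105 and ERF109. These 2 libraries were picked after their ERF and early gene values were seen, and leaving them out takes away the Col-0 library with the highest sum and the 35S:miR858 library with the lowest. These counts are therefore a description that supports nothing beyond the fits of all 9 libraries.

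**Figure D4:**
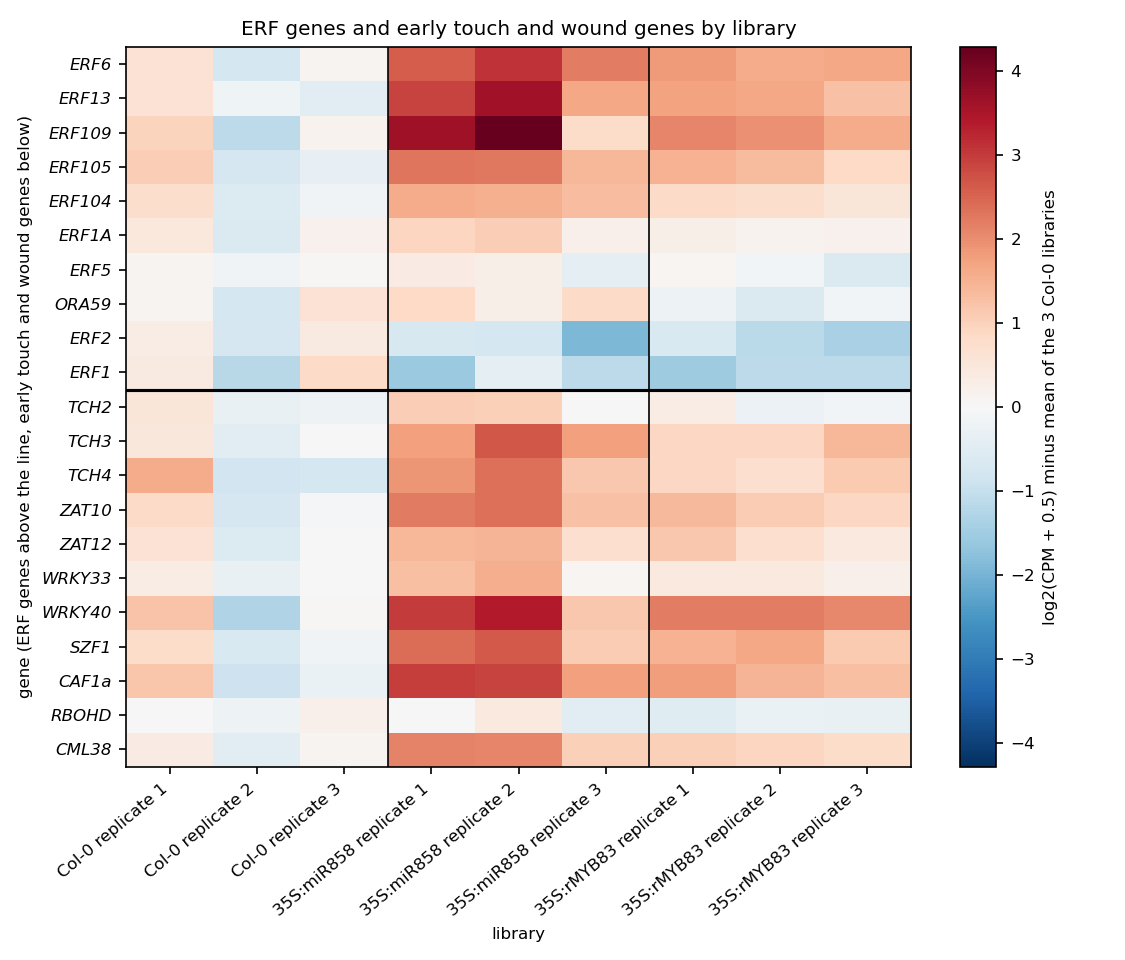
Level of the 10 ERF genes (above the line) and the 11 early touch and wound genes (below it) in each of the 9 libraries, as log2(CPM + 0.5) minus the mean of the 3 Col-0 libraries (colour scale). Col-0 replicate 1 is redder than the other Col-0 libraries and 35S:miR858 replicate 3 paler than the other 35S:miR858 libraries for most genes of both blocks, while ERF2 and ERF1 are blue in both lines.

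The members differed in how closely they followed the rest of the set. Across the 9 libraries, which share genotype differences and library effects, the Pearson correlation of a member with the mean of the other members was 0.984 for ERF1A, 0.857 for ERF109, 0.815 for ERF104, 0.809 for ERF105, 0.74 for ERF6 and 0.717 for ERF13. It was 0.538 for ERF5 and 0.505 for ORA59, and near 0 for ERF2 at -0.0284 and ERF1 at -0.0681. Among 15769 other genes with a mean of at least 5 CPM, those most like the mean profile of the 10 members were CAMBP25 and MYB15, both at 0.969, PUP14 at 0.965, AT5G35735 at 0.962, CAF1b at 0.96, AT2G27080 at 0.943, NHL3 at 0.938 and AT3G15530 at 0.935. MYB15 stood at 41.0, 14.3 and 27.8 CPM in Col-0, at 80.7, 81.3 and 26.3 CPM in 35S:miR858, and at 38.6, 25.1 and 29.4 CPM in 35S:rMYB83. Replicate 3 of 35S:miR858 was at the level of Col-0, as for ERF109.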

How the data were processed

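Per the submitters' processing notes, reads were handled with FastQC, Trimmomatic, TopHat2 2.0.14 and HTSeq on TAIR10; the sources used here state neither settings nor strand. The authors deposited whole-number counts per gene, 1 file per library, and non-gene summary lines were left out. The members and lists were chosen with earlier results of these data known.

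In R 4.3.3, edgeR 4.0.16 fitted all 9 libraries together (filterByExpr, TMM, quasi-likelihood F test, 3 genotypes). Benjamini-Hochberg adjustment ran over all 19496 genes tested, and genes passed at an adjusted p under 0.05. The procedure was tested on simulated counts. The SE is the log2 fold change over the square root of F. CPM uses TMM-scaled totals. All members, list genes with the smallest adjusted p among those that passed, and the 8 most alike genes are named. PDF, CHIB and MYB15 values and the ratios were added after values were seen. Results on 1 further list are not reported here.

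No label marks same-numbered libraries as pairs, so the main fit used no pairing and the replicate number as a block was an alternative. Deviations of same-numbered libraries from their group means correlated between 35S:rMYB83 and Col-0 at r = 0.548, 0.241 and 0.141. The pair at 0.548, replicate 1, holds the libraries with the largest green shoot share. Differently numbered libraries were not compared, so these values do not show a pairing. Between 35S:miR858 and Col-0 r was -0.0598, 0.122 and -0.257, and between the 2 lines it was -0.104, 0.312 and -0.131. DESeq2 1.42.0, other scalings, no filter, a block, a green covariate and left-out libraries were alternatives. Sequences and coordinates are RefSeq TAIR10.1, whose annotation matched 28009 of 28775 loci; motif and pairing searches used Python 3.11.15 with Biopython 1.88.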

Additional observations from a re-analysis of the deposited data

How the results depend on the processing

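No called member changed sign, and no member called in the fit of all 9 libraries lost its call in the 19 alternatives. Leaving out 1 library gave 5 to 6 members that rose and 0 to 2 that fell in 35S:miR858 against Col-0 (all genes 1491 to 2277 and 1975 to 2869). It gave 1 to 4 and 0 to 2 in 35S:rMYB83 against Col-0 (all genes 784 to 1537 and 1223 to 2254), and 0 to 0 and 0 to 2 in the direct comparison (all genes 238 to 594 and 84 to 398). In the fit of all libraries the counts over all genes were 2271 and 2629, 1306 and 1897, and 488 and 301.

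In 35S:miR858 against Col-0, 1 member fell, ERF2, under library totals, TMM without rRNA and organelle genes, no filter, DESeq2, the replicate block and a green covariate; library totals gave 1359 genes that rose and 4140 that fell. In 35S:rMYB83 against Col-0, 1 member fell under library totals and 1 with the green covariate, and 2 under DESeq2. There, 2 members rose under DESeq2 and 2 with only the 2 groups compared, 3 with the replicate block, 3 without Col-0 1 and 35S:rMYB83 1, and 5 without Col-0 1 and 35S:miR858 3; library totals gave 843 genes that rose. In the direct comparison, 2 members fell under DESeq2, 1 with the replicate block, 1 with the green covariate, 3 with only the 2 groups compared, 1 without Col-0 1 and 35S:rMYB83 1, and 5 without Col-0 1 and 35S:miR858 3; 575 genes fell under DESeq2 and 179 without Col-0 1 and 35S:rMYB83 1. Of members that did not pass, ERF5 in 35S:miR858, ERF1A in 35S:rMYB83 and ERF1 and ERF2 in the direct comparison changed sign in 2, 1, 1 and 5 of the 19 alternatives. The last pair of left-out libraries was chosen after seeing the data; the cause of these shifts was not tested.

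By their labels, same-numbered libraries share only a number in every comparison. The replicate block moved ORA59 to 0.66 (adjusted p = 0.0444) in 35S:miR858 and to -1.05 (adjusted p = 0.032) in the direct comparison. ERF13 rests on 3 to 15 counts in Col-0, which limits its precision.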
